A study of Homo sapiens with 72 samples.

Results

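A group of 10 genes that encode serine/arginine-rich (SR) splicing factors and the related TRA2 proteins was followed across every compound and dose of the population RNA-seq series: SRSF1, SRSF2, SRSF3, SRSF4, SRSF5, SRSF6, SRSF7, SRSF11, TRA2A and TRA2B. They were chosen by name, as members of the family known for poison exons, with earlier results of these data known. By Ensembl identifier they were matched as 10 of the 60371 genes in the deposited tables. All 10 passed the filter on low counts in every comparison. The samples were 72 wells of U2OS, an established human osteosarcoma line grown in multi-well plates and treated for 12 h. DMSO, the solvent, was given to 18 wells, and the other 54 wells received 1 of 6 compounds at 100, 1000 or 10000 nM, with 3 wells for each compound and dose. Homoharringtonine blocks the elongation step of translation, and triptolide blocks transcription through the XPB subunit of TFIIH. Nilotinib is a BCR-ABL tyrosine kinase inhibitor, pyrazolanthrone a JNK inhibitor, MK-2206 an AKT inhibitor and miglitol an alpha-glucosidase inhibitor. All groups share the line and the treatment time and differ in compound and dose. Nothing in the sources used here says whether the 3 wells of a group were separate cultures, so p-values measure only the spread between these wells, which may be technical.

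SR proteins bind exonic enhancers through RNA recognition motifs and recruit the spliceosome through arginine and serine repeats, which kinases of the CLK and SRPK families phosphorylate. Most genes of the family carry a poison exon, a conserved cassette with an in-frame stop codon. When it is spliced in, the transcript is a substrate of nonsense-mediated decay (NMD), a pathway that requires translation, and several SR proteins promote inclusion of their own poison exon. The values here are levels of whole genes and a mean transcript length per gene, not inclusion of single exons.

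In the GENCODE v44 annotation of GRCh38, the build given in the labels, 8 of the 10 genes had at least 1 internal exon that is used by an NMD transcript and overlaps no exon of the canonical transcript, 18 such exons in all, of which 12 held the annotated stop codon. SRSF1 and SRSF5 had none under this definition, although 3 and 1 of their annotated transcripts were typed as NMD substrates. The only such exon of SRSF2 held no annotated stop codon. The 5 stretches printed here are the reference sequence from the first base of such an exon to its stop codon, on the strand of the gene and 5′ to 3′, with the stop codon in capitals. They are shown because the poison exon is the feature by which these genes are grouped. SRSF3 and SRSF7 encode closely related proteins and reach a stop after a few codons of a long exon. The TRA2A and TRA2B exons start with the same 9 bases. The whole exons lie at chr6:36599821-36600276 (SRSF3, 456 bases, plus strand), chr2:38748898-38749346 (SRSF7, 449 bases, minus strand), chr20:43459153-43459420 (SRSF6, 268 bases, plus strand), chr7:23522132-23522432 (TRA2A, 301 bases, minus strand) and chr3:185931577-185931852 (TRA2B, 276 bases, minus strand).
SRSF3: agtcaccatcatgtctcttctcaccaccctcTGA
SRSF7: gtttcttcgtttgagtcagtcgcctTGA
SRSF6: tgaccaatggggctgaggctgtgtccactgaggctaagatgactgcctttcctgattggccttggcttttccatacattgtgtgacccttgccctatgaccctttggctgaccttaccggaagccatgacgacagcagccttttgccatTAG
TRA2A: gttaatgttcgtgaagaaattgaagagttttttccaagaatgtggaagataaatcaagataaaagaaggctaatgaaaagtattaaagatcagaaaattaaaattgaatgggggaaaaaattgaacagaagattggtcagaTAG
TRA2B: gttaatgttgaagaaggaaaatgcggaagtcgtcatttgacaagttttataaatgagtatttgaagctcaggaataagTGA

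**Figure D1:**
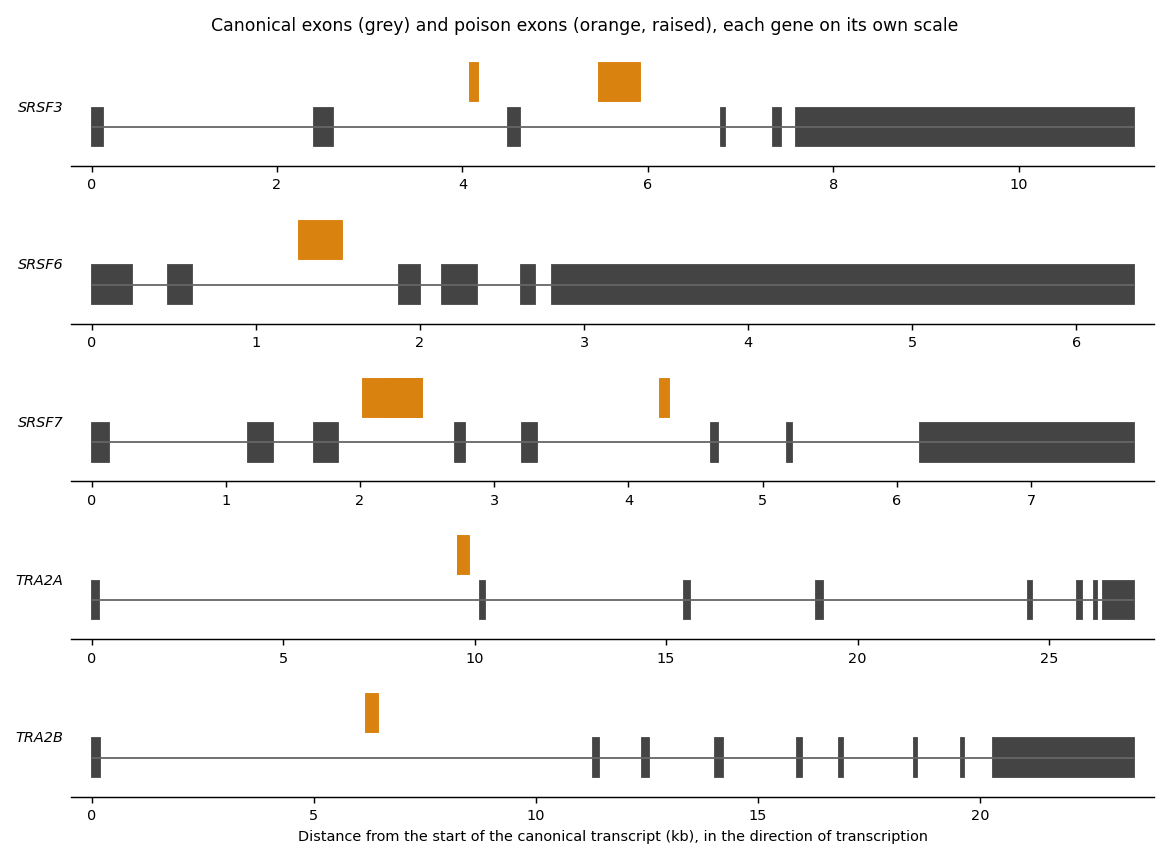
Exon maps of SRSF3, SRSF6, SRSF7, TRA2A and TRA2B, drawn to scale in kb from the start of the canonical transcript, with canonical exons in grey and the NMD exons described in the text in orange. Every orange exon lies in an intron of the canonical transcript, and those of SRSF6, TRA2A and TRA2B with printed stretches are 268, 301 and 276 bases long.

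The genes lie on 8 chromosomes. SRSF1 (ENSG00000136450, chr17:58000919-58007346, minus strand) and SRSF2 (ENSG00000161547, chr17:76734115-76737333, minus strand) share chromosome 17, and SRSF4 (ENSG00000116350, chr1:29147743-29181900, minus strand) and SRSF11 (ENSG00000116754, chr1:70205682-70253052, plus strand) share chromosome 1. The others are SRSF3 (ENSG00000112081, chr6:36594353-36605600, plus strand), SRSF5 (ENSG00000100650, chr14:69726900-69772005, plus strand), SRSF6 (ENSG00000124193, chr20:43457893-43466046, plus strand), SRSF7 (ENSG00000115875, chr2:38743599-38751494, minus strand), TRA2A (ENSG00000164548, chr7:23504780-23532041, minus strand) and TRA2B (ENSG00000136527, chr3:185914558-185938103, minus strand). SRSF2 overlaps MFSD11 on the opposite strand, which was counted at 23.8 CPM in DMSO. SRSF1 overlaps ENSG00000279069 on the opposite strand at 5.50 CPM. The kit marks strand, but whether the counting used it is not given in the sources used here, so both SRSF1 and SRSF2 carry that uncertainty. Named pseudogenes of the 10 genes held at most 0.0551% of the count of their parent, SRSF6.

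Depth ranged from 0.0708 to 68.3 mil estimated counts per well, with a median of 38.4 mil, and 3 wells were below 10 mil. These were triptolide 100 nM replicate 2 (70767 counts), DMSO replicate 10 (460014 counts) and triptolide 1000 nM replicate 1 (9628355 counts). Of the 3 values given for a gene at 100 nM triptolide, the second is from the well of 70767 counts. Low values in that well rest on a few reads. The tests against DMSO, between compounds, of dose and of length were also computed without them. The levels per well, the summed levels, the correlations and the search for similar genes were not. Of 8 markers of the osteoblast lineage and mesenchyme, 5 had a DMSO median of at least 1 TPM and SP7 was at 0, while 2 of 9 markers of other cell types did (CD68 and EPCAM), with CD3E and ALB at 0. The summed level of the first list was 3640 to 5258 TPM in DMSO and that of the second 13.7 to 57.1 TPM. In bulk RNA, fewer cells and less RNA per cell cannot be told apart.

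In DMSO the levels of the 10 genes were ordered on the per-length scale of TPM (transcripts per mil, n = 18 wells throughout). SRSF3, the smallest of the SR proteins, stood highest at 668 ± 60.5 TPM (SD), above SRSF1 in 18 of 18 wells. SRSF1 and SRSF2 followed at 327 ± 18.2 and 319 ± 39.5 TPM and changed places between wells, with SRSF1 higher in 9 of 18. SRSF5 at 263 ± 61.0, SRSF7 at 242 ± 19.4 and TRA2B at 242 ± 15.4 TPM could likewise not be ordered beyond their spread. SRSF6 at 113 ± 9.70 TPM was below TRA2B and above SRSF11 in all 18 wells. The lowest levels were those of SRSF11 at 72.2 ± 12.3, SRSF4 at 58.8 ± 10.3 and TRA2A at 50.8 ± 7.40 TPM, and SRSF4 exceeded TRA2A in 12 of 18 wells. The summed level of all 10 genes was 2355 ± 129 TPM in DMSO. It was 3870 ± 55.2, 4499 ± 96.5 and 5103 ± 191 TPM with rising homoharringtonine dose and 797 ± 27.6, 543 ± 29.6 and 501 ± 16.4 TPM with rising triptolide dose (n = 3 each), and lay between 2175 and 2540 TPM in the mean of each group of the other 4 compounds.

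All 10 genes passed as higher at every homoharringtonine dose under TMM scaling, 8 of them with library sizes as the only scaling at 100 nM, where SRSF2 (0.02, adjusted p = 0.85) and SRSF11 (0.10, adjusted p = 0.51) did not pass. By edgeR's quasi-likelihood test against the 18 DMSO wells with Benjamini-Hochberg adjustment over all genes (adjusted p under 0.05 counts as risen or fallen throughout), 10 of 10 rose at 100, 1000 and 10000 nM, where 31.1, 35.0 and 36.7% of all genes tested rose. More than 2-fold rises numbered 5, 5 and 6 of 10, beside 15.6, 21.5 and 23.6% of all genes. The median log2(Fold Change) of the 10 genes was 0.88, 0.99 and 1.13, and that of all genes tested was -0.03, -0.01 and -0.05. Of the 30 values of the 10 genes in 3 wells, 27, 29 and 30 lay above the highest DMSO well at the 3 doses. TRA2A, TRA2B and SRSF6 had the largest estimates at each dose. The smallest was that of SRSF2 at 100 nM and that of SRSF1 at 1000 and 10000 nM.

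Triptolide lowered most of the same 10 genes. At 100 nM 8 of 10 fell and SRSF5 and TRA2A rose, at 1000 nM all 10 fell, and at 10000 nM 9 fell and TRA2A did not pass. Genes that fell made up 32.3, 38.6 and 39.7% of all genes tested, and those that rose at 100 nM 24.5%. In each dose 6 of the 10 genes were more than 2-fold lower, beside 20.9, 30.4 and 30.2% of all genes. The median log2(Fold Change) of the 10 genes was -1.36, -1.46 and -1.50, against -0.16, -0.21 and -0.17 for all genes. Values below the lowest DMSO well numbered 25, 29 and 28 of 30, and 4 values at 100 nM lay above the highest. The homoharringtonine and triptolide comparisons share their DMSO wells. All these changes are relative to the bulk of the transcriptome, because TMM scaling centres it. Mitochondrial mRNAs took 0.138 to 0.367% of counts in DMSO wells and 1.01 to 1.15% at 10000 nM triptolide. Scaled to the 13 mitochondrial mRNAs, a choice that moved the median of all genes by -1.65, -2.47 and -2.75 for triptolide and by -0.09, -0.07 and -0.27 for homoharringtonine, all 10 genes fell at each triptolide dose with medians of -3.01, -3.90 and -4.26, and 6, 10 and 8 of 10 rose with homoharringtonine.

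**Figure D2:**
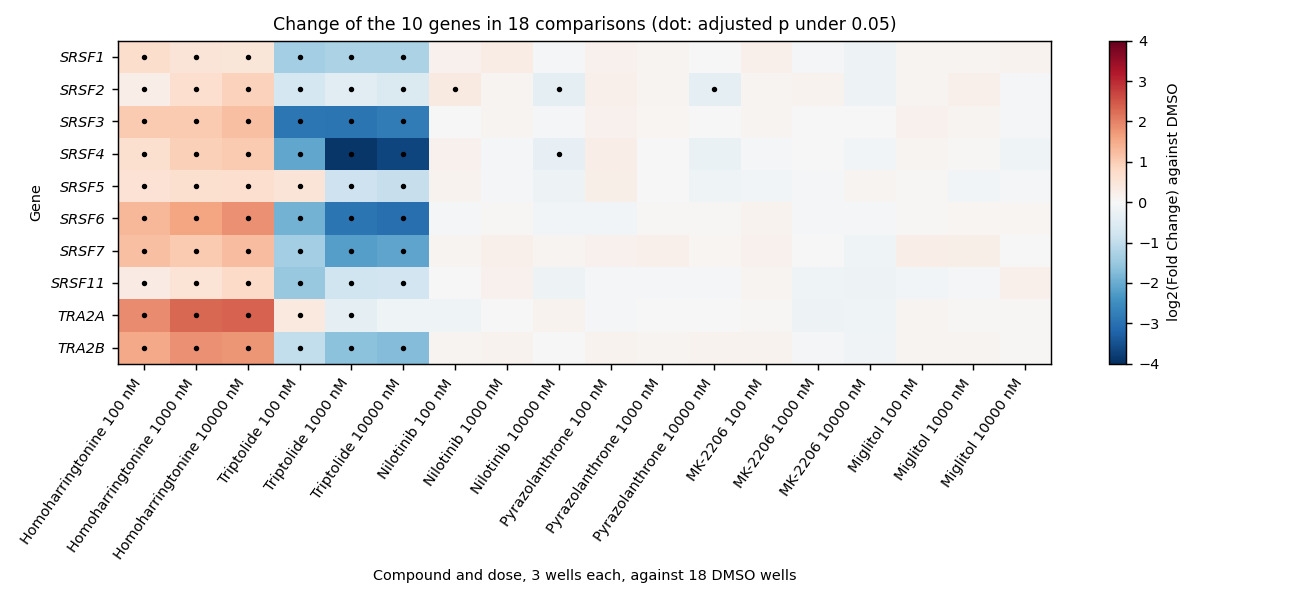
Log2(Fold Change) against DMSO of the 10 genes (rows) in the 18 compound and dose comparisons (columns), with red for higher, blue for lower and a dot where the adjusted p was under 0.05. The 3 homoharringtonine columns are red for all 10 genes, the triptolide columns are blue except SRSF5 and TRA2A at 100 nM, and 4 of the 120 cells of the other compounds carry a dot.

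SRSF1 and SRSF2 encode the most studied SR proteins, SRSF1 a shuttling factor with roles in splicing, export and translation and SRSF2 a factor held in nuclear speckles. SRSF1 was measured at a low, median and high normalised CPM (counts per mil after TMM scaling) of 313, 350.0 and 452 in the DMSO wells. With homoharringtonine the wells read 603, 579 and 561.5 CPM at 100 nM, 469, 471 and 599.7 at 1000 nM and 483, 472 and 584 at 10000 nM, all above the highest DMSO well. SRSF1 rose by a log2(Fold Change) of 0.72 (SE 0.08, adjusted p = 5.5e-08), 0.52 (SE 0.09, adjusted p = 2.1e-05) and 0.49 (SE 0.09, adjusted p = 3.6e-05), so its largest estimate was at the lowest dose. Triptolide brought SRSF1 to 126, 108 and 154 CPM at 100 nM, 125, 143 and 176 at 1000 nM and 155, 147 and 154 at 10000 nM, well under the DMSO range, with falls of 1.37 (SE 0.12), 1.28 (SE 0.11) and 1.27 (SE 0.09) on the log2 scale.

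SRSF2 behaved differently with dose. Its DMSO wells ran from 246 to 306 CPM with a median of 262. The homoharringtonine wells read 316, 305 and 327 CPM at 100 nM, where 1 of them lay inside the DMSO range, then 477, 415 and 386 at 1000 nM and 541, 519.8 and 479.6 at 10000 nM. The rise was 0.25 (SE 0.08, adjusted p = 0.006), 0.67 (SE 0.08, adjusted p = 7.8e-08) and 0.91 (SE 0.07, adjusted p = 1.1e-11). The call at 100 nM was lost with library sizes only (0.02), mitochondrial scaling (0.14), at least 10 counts in every well (0.14) and the replicate block (0.10), with adjusted p from 0.097 to 0.85. Under triptolide SRSF2 gave the smallest fall among genes that fell at all 3 doses, to 163, 157 and 164 CPM, then 199.6, 209 and 198, and 188, 193 and 173, or -0.71 (SE 0.09), -0.41 (SE 0.08) and -0.58 (SE 0.08) on the log2 scale (largest adjusted p = 7.6e-05).

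SRSF3 and SRSF7 encode closely related single-motif SR proteins that also serve as adaptors of mRNA export. SRSF3 was at 246 to 322 CPM in DMSO (median 277) and at 619, 567 and 565 CPM with 100 nM homoharringtonine, 574, 551 and 629 with 1000 nM and 676, 638 and 697 with 10000 nM. Even the lowest of these 9 wells exceeded the highest DMSO well, and the estimates of 1.05 (SE 0.07), 1.04 (SE 0.07) and 1.21 (SE 0.06) were nearly the same at each dose. Under triptolide SRSF3 read 42.45, 12.05 and 35.25 CPM, then 35.8, 37.7 and 40.2, and 47.0, 39.2 and 40.7, so the level reached at 100 nM was much the same at the higher doses. The 12.05 CPM is from the well of 70767 counts and rests on very few reads. The SRSF3 changes at the 3 triptolide doses were -2.90 (SE 0.13, adjusted p = 1.5e-14), -2.91 (SE 0.09, adjusted p = 5e-18) and -2.79 (SE 0.09, adjusted p = 3.8e-18). For SRSF7, the DMSO wells lay between 134 and 184 CPM (median 156), the homoharringtonine wells at 373, 359.9 and 354, 318, 333 and 326, and 378, 385 and 375, and the triptolide wells at 71.0, 24.1 and 57.4, 27.7, 36.2 and 39.0, and 43.0, 36.4 and 33.04 CPM. SRSF7 therefore rose in 9 of 9 wells and fell in 9 of 9 (the 24.1 CPM being the well of 70767 counts). The changes were 1.21, 1.04 and 1.23 (SE 0.07 to 0.08), and -1.34 (SE 0.13), -2.21 (SE 0.11) and -2.12 (SE 0.11) on the log2 scale.

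SRSF4, SRSF5 and SRSF6 form a subgroup with an additional atypical RNA recognition motif. SRSF6 was the most evenly changed of them. Its DMSO wells were at 130 to 169 CPM with a median of 155, and the homoharringtonine wells at 389, 379.6 and 369, 426, 454 and 491, and 554, 549 and 563 CPM, each dose above the one before it without overlap. Log2(Fold Change) was 1.33 (SE 0.06, adjusted p = 8.6e-15), 1.58 (SE 0.07, adjusted p = 4.6e-16) and 1.83 (SE 0.07, adjusted p = 2.5e-17). Triptolide lowered SRSF6 to 46.2, 36.1 and 35.6, 15.6, 20.2 and 24.2, and 18.7, 20.3 and 19.75 CPM, with the 3 lowest-dose wells above the other 6, and the changes were -1.89 (SE 0.12), -2.93 (SE 0.12) and -3.01 (SE 0.10).

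SRSF4 fell furthest of the 10 genes at 1000 and 10000 nM triptolide. In DMSO it was measured at 72.5 to 121 CPM (median 82.2). Wells with 100 nM triptolide read 18.5, 0 and 21.04 CPM, where the 0 is the well of 70767 counts, and those with 1000 and 10000 nM read 5.92, 5.001 and 5.68, and 7.83, 5.30 and 6.97. The changes were -2.09 (SE 0.17), -3.90 (SE 0.15) and -3.66 (SE 0.15, adjusted p = 1.2e-16), the last from a mean of 82.8 ± 10.5 to 6.70 ± 1.28 CPM. Homoharringtonine moved SRSF4 the other way, to 121, 119 and 139.7, 181, 146 and 149.5, and 175, 176 and 174 CPM, or 0.64 (SE 0.10), 0.95 (SE 0.10) and 1.06 (SE 0.09). The 100 nM wells straddled the top of the DMSO range and the others lay above it.

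SRSF5 rose at the lowest triptolide dose and fell at the higher doses. Its DMSO wells were at 106 to 174 CPM with a median of 129. The triptolide wells read 189, 145 and 203 CPM at 100 nM, 81.6, 76.3 and 69.9 at 1000 nM and 69.1, 70.2 and 76.0 at 10000 nM. At 100 nM 2 of the 3 wells lay above the DMSO range and the well of 70767 counts inside it, whereas all 6 wells of the higher doses lay below it. The changes were 0.52 (SE 0.13, adjusted p = 0.00095), -0.81 (SE 0.13, adjusted p = 3.3e-06) and -0.93 (SE 0.12, adjusted p = 2.3e-07). The rise at 100 nM was 0.60 without the wells under 10 mil, did not pass with library sizes as the only scaling (0.22), and turned into a fall of 1.08 when scaled to mitochondrial mRNAs. With homoharringtonine SRSF5 rose by 0.59 (SE 0.11), 0.63 (SE 0.12) and 0.68 (SE 0.12), to 199, 196 and 199.6 CPM, 218, 212 and 188, and 217, 233 and 203, above every DMSO well.

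**Figure D3:**
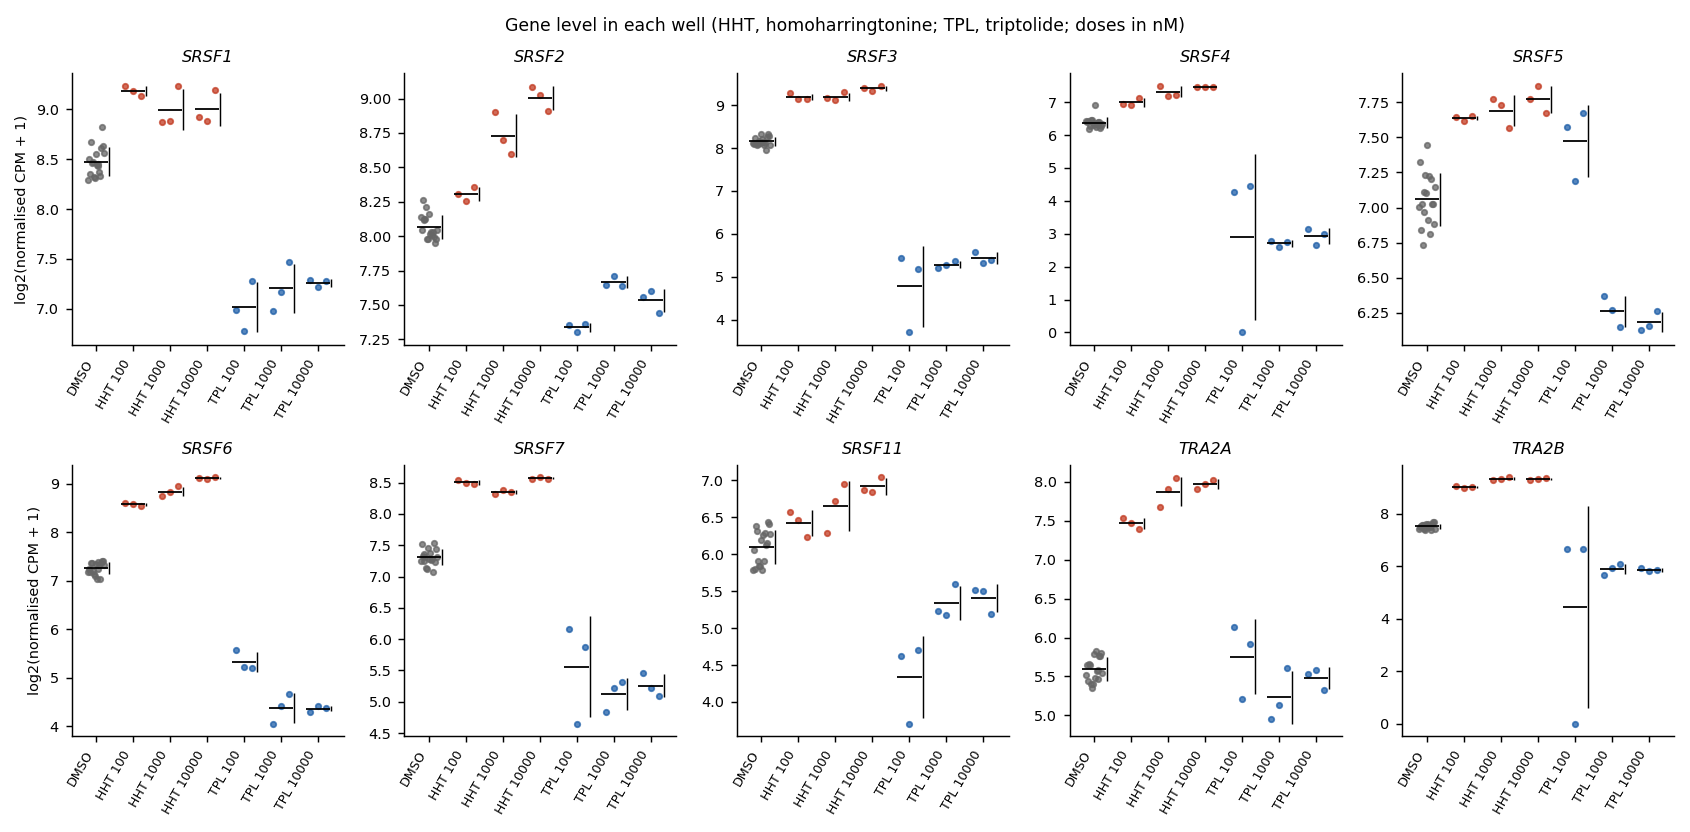
Log2(normalised CPM + 1) per well of each of the 10 genes in DMSO (18 wells) and at 3 doses of homoharringtonine and triptolide (3 wells each), with the mean as a bar and the SD as a vertical line. All 10 genes sit above the DMSO wells at 10000 nM homoharringtonine, and at 100 nM triptolide all wells sit below them except those of SRSF5 and 2 of the 3 of TRA2A.

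SRSF11 encodes an SR-related protein with a U2AF-binding role and was the noisiest of the 10 genes in DMSO, with a coefficient of variation of 16.4%. Its DMSO wells spanned 54.3 to 86.0 CPM (median 69.3). The homoharringtonine wells were at 94.4, 87.5 and 74.2, 77.2, 105 and 123, and 116, 114 and 131 CPM, so that 1 well at each of the lower doses fell inside the DMSO range. SRSF11 rose by 0.33 (SE 0.12, adjusted p = 0.024), 0.56 (SE 0.13, adjusted p = 0.00058) and 0.78 (SE 0.12, adjusted p = 4.5e-06). The call at 100 nM was lost under 9 alternatives with estimates between 0.09 and 0.31, among them library sizes only (0.10, adjusted p = 0.51), the GC slope of each library (the change in log2(TPM + 1) across genes per 10 percentage points of GC) as a covariate (0.09, adjusted p = 0.13), and leaving out DMSO replicate 10 (0.29, adjusted p = 0.055), replicate 1 (0.26, adjusted p = 0.15) or replicate 2 (0.31, adjusted p = 0.089). Triptolide lowered SRSF11 most at 100 nM, to 23.5, 12.05 and 25.01 CPM, against 36.6, 35.4 and 47.5 and then 45.0, 44.5 and 35.4 at the higher doses, or -1.52 (SE 0.18), -0.79 (SE 0.15) and -0.77 (SE 0.14). Here too the 12.05 CPM is from the well of 70767 counts and rests on very few reads.

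TRA2A and TRA2B, the human homologues of fly transformer-2, bind purine-rich enhancers and work with SR proteins. TRA2A had the largest rise of the 10 genes at every homoharringtonine dose. It was measured at 39.8 to 55.8 CPM in DMSO (median 46.8) and at 184, 177 and 167, 203, 239 and 263, and 238, 251 and 259.9 CPM with homoharringtonine. No treated well came near the DMSO range, and log2(Fold Change) was 1.90 (SE 0.08, adjusted p = 2.4e-16), 2.30 (SE 0.08, adjusted p = 2e-17) and 2.36 (SE 0.08, adjusted p = 1.1e-17). With triptolide TRA2A stayed close to DMSO under TMM scaling, at 69.2, 36.1 and 59.3 CPM, then 29.99, 34.1 and 47.7, and 45.4, 46.8 and 39.0. It changed by 0.40 (SE 0.12, adjusted p = 0.0048), -0.36 (SE 0.12, adjusted p = 0.009) and -0.17 (SE 0.10, adjusted p = 0.13). Neither of the 2 calls held throughout. The rise did not pass without replicate 1 of 100 nM (0.29, adjusted p = 0.13) and turned into a fall of 1.25 with mitochondrial scaling, and the fall at 1000 nM did not pass without replicate 1 (-0.23), without replicate 2 (-0.31) or without the wells under 10 mil (-0.24). At 10000 nM the change became a called fall with library sizes only (-0.70, adjusted p = 1.3e-06) and with mitochondrial scaling (-2.93, adjusted p = 3.1e-12). With at least 10 counts in every well it was -0.19 (adjusted p = 0.049), and with DESeq2 0.0036 (adjusted p = 0.98).

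TRA2B, expressed at 164 to 204 CPM in DMSO (median 181), reached 525, 499.5 and 517 CPM with 100 nM homoharringtonine, 620.3, 636 and 674 with 1000 nM and 621, 634 and 661 with 10000 nM. These levels stood far above the DMSO wells and the log2(Fold Change) was 1.51, 1.82 and 1.78 (SE 0.06 each, largest adjusted p = 1.7e-16). Unlike TRA2A, TRA2B fell with triptolide at every dose, to 101, 0 and 98.5 CPM, then 50.2, 60.4 and 66.0, and 59.8, 54.9 and 56.2, by -0.99 (SE 0.17, adjusted p = 1.8e-05), -1.64 (SE 0.09, adjusted p = 4.5e-14) and -1.72 (SE 0.08, adjusted p = 1.3e-15). The 0 is again the well of 70767 counts.

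The 2 compounds were then compared directly at matched dose, without DMSO, as 3 wells against 3. At 100 nM 9 of the 10 genes were lower in triptolide than in homoharringtonine, and at 1000 and 10000 nM all 10 were, beside 35.8, 38.9 and 47.0% of all genes tested. The exception was SRSF5 at 100 nM, with a difference of 0.01 (SE 0.17, adjusted p = 0.96) whose sign changed between processing choices. At 10000 nM the largest gap was that of SRSF6, 27.0-fold lower in triptolide (log2 difference -4.75, SE 0.07, adjusted p = 6.8e-12), followed by SRSF4 at 24.9-fold (-4.64, SE 0.13) and SRSF3 at 15.1-fold (-3.91, SE 0.09). SRSF2 and SRSF11 had the narrowest gaps, at -1.41 (SE 0.08) and -1.46 (SE 0.10). With the GC slope of the libraries as a covariate SRSF11 no longer differed detectably at that dose (-0.17, SE 0.28, adjusted p = 0.65). That slope was 0.36 to 0.51 in the triptolide wells and -0.25 to -0.15 in the homoharringtonine wells. Slope and compound thus separate the same wells, and this fit cannot show whether the SRSF11 gap holds. In the fit without the covariate TRA2A, which had barely moved with triptolide under TMM scaling, differed by -2.44 (SE 0.09).

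Dose response within each compound was tested as the slope on log10 dose over its 9 wells. With homoharringtonine 4 genes rose further with dose, SRSF2 by 0.32 per 10-fold dose (SE 0.05, adjusted p = 0.00099), SRSF6 by 0.24 (SE 0.05, adjusted p = 0.0023), TRA2A by 0.22 (SE 0.07, adjusted p = 0.019) and SRSF4 by 0.20 (SE 0.06, adjusted p = 0.02), where 21.1% of all genes rose. None of the 10 passed this test when replicate 2 of each dose was left out, where the 4 slopes were 0.31, 0.25, 0.22 and 0.18 (smallest adjusted p = 0.069). With triptolide 4 genes fell further, SRSF4 by -0.77 (SE 0.20, adjusted p = 0.016), SRSF5 by -0.76 (SE 0.12, adjusted p = 0.00055), SRSF6 by -0.58 (SE 0.13, adjusted p = 0.0056) and SRSF7 by -0.40 (SE 0.13, adjusted p = 0.038), where 17.8% of all genes fell. Without replicate 1, or without replicate 3, SRSF5 was the 1 gene still called. SRSF3 had slopes of 0.07 (SE 0.05) and 0.03 (SE 0.11), so its levels did not move detectably between 100 and 10000 nM of either compound.

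The other 4 compounds left these genes near their DMSO levels. Of 120 comparisons (10 genes, 12 compound and dose groups), 4 passed, and the 116 others had a log2(Fold Change) between -0.26 and 0.29. The number was 2 without replicate 2 or without replicate 3 of each treated group, 6 with DESeq2, 11 with mitochondrial scaling and 15 with the GC slope of the libraries as a covariate. SRSF2 accounted for 3 of the 4. It rose by 0.35 (SE 0.08, adjusted p = 0.0056) with 100 nM nilotinib, where the wells read 298, 383 and 346 CPM and 9.08% of all genes passed in either direction. That call was lost without replicate 2 (0.28, adjusted p = 0.15) or replicate 3 (0.36, adjusted p = 0.078). It fell by 0.39 (SE 0.07) with 10000 nM nilotinib (214, 209 and 189.5 CPM, adjusted p = 0.00063, 14.4% of all genes) and by 0.39 (SE 0.07) with 10000 nM pyrazolanthrone (219, 211 and 199 CPM, adjusted p = 0.0013, 7.65%). The fourth was SRSF4 with 10000 nM nilotinib, at 63.2, 64.2 and 68.8 CPM, all below the DMSO wells, a fall of 0.32 (SE 0.11, adjusted p = 0.042). It did not pass when replicate 1, 2 or 3 was left out (adjusted p = 0.24, 0.16 and 0.06). No member passed with miglitol, where 0.0% of all genes did at each dose, with MK-2206, where 0.0648, 1.52 and 3.15% did, with 1000 nM nilotinib (3.95%) or with 100 and 1000 nM pyrazolanthrone (4.77 and 0.0%), although 17 of the 116 had an unadjusted p under 0.05.

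A further readout came from the gene length that RSEM reports for each well, the mean of a gene's transcript lengths weighted by their estimated abundance. It moves when the mix of transcripts moves. At 10000 nM homoharringtonine SRSF4 and SRSF6 became shorter and SRSF3 and SRSF7 longer by limma with Benjamini-Hochberg adjustment, beside 5.23% of all genes shorter and 2.35% longer. SRSF4 was at 1868, 1847 and 1820 bases, under all 18 DMSO wells (2129 to 2356, median 2265), a change of -0.29 on the log2 scale (SE 0.02, adjusted p = 7e-09, exact permutation p = 0.00075, two-sided and the smallest that 3 wells against 18 allow). At 1000 nM SRSF4 lay between, at 2055, 1992 and 2051 bases (-0.15, SE 0.02, adjusted p = 9.4e-05, 3.23% of all genes shorter). The canonical SRSF4 transcript is 2300 bases long. Shorter transcripts in GENCODE v44 are the NMD transcript of 1399 bases, a coding transcript of 1264 bases and retained-intron transcripts of 206, 516 and 614 bases. The deposited tables list 2 more SRSF4 transcripts, which are absent from GENCODE v44 and whose lengths are not known here. The parts of all these transcripts in the shortening were not tested.

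SRSF7 was longer, at 1330, 1321 and 1308 bases against 1084 to 1196 in DMSO (median 1132), a change of 0.21 (SE 0.03, adjusted p = 1.4e-05, exact permutation p = 0.00075). SRSF3 reached 982, 922 and 1091 bases against 747 to 1077 in DMSO (median 787), so these wells overlapped the DMSO range and the change of 0.30 (SE 0.08, adjusted p = 0.018) was 0.06 (adjusted p = 0.90) once the GC slope of each library was a covariate. SRSF6 shortened from a mean of 2169 to 1932 bases (-0.16, SE 0.05, adjusted p = 0.048). Leaving out replicate 1 or replicate 3 removed the SRSF3 call, and leaving out any of the 3 removed that of SRSF6. SRSF6 lists 2 transcripts, a coding transcript of 4353 bases and an NMD transcript of 1680 bases, so its length can be turned into a share. The short transcript made up 82.3% ± 4.39 in DMSO (SD, n = 17 wells of at least 10 mil, 72.6 to 87.7%) and 86.3 ± 0.656, 88.4 ± 2.33 and 90.6% ± 2.46 at 100, 1000 and 10000 nM homoharringtonine (n = 3 each), of which the length passed at 10000 nM but not at 100 nM (adjusted p = 0.71) or 1000 nM (adjusted p = 0.25). With triptolide the share was 84.3 ± 5.96 (n = 2), 80.9 ± 4.55 (n = 2) and 86.0% ± 2.73 (n = 3) at the same doses, in wells of at least 10 mil. Because the annotated 3′ ends of the pair lie 2909 bases apart, use of the earlier end and inclusion of the poison exon cannot be told apart in this share. TRA2A and TRA2B did not pass, with changes of -0.00063 (SE 0.05) and 0.19 (SE 0.10). Triptolide gave 1 call, SRSF4 at 100 nM (-0.47, adjusted p = 0.03, 14.6% of all genes shorter), which rested on the well where its count was 0 and was -0.06 (adjusted p = 0.11) without the wells under 10 mil.

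**Figure D4:**
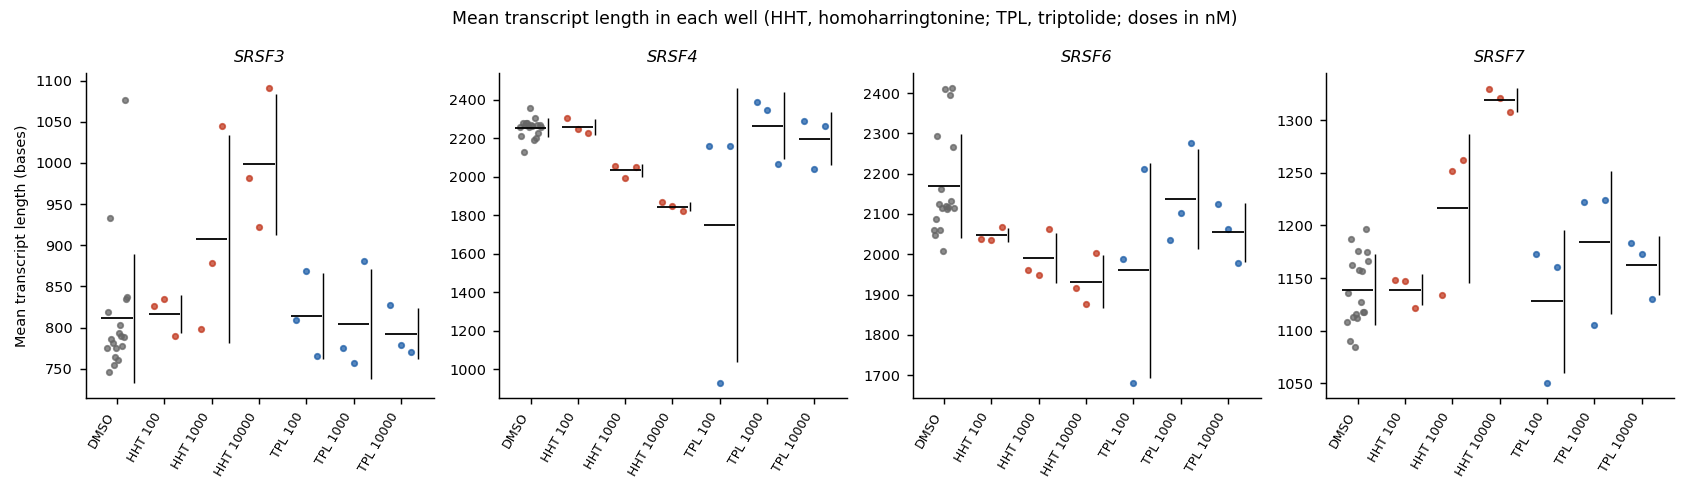
Mean transcript length in bases per well of SRSF3, SRSF4, SRSF6 and SRSF7 in DMSO and at 3 doses of homoharringtonine and triptolide, with the mean as a bar. SRSF4 at 10000 nM homoharringtonine (1820 to 1868 bases) and SRSF7 (1308 to 1330 bases) are clear of their DMSO wells, while SRSF3 overlaps them.

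The GC slope of the libraries differed with homoharringtonine. It lay between -0.25 and -0.15 in the 3 wells at 10000 nM, below all DMSO wells (-0.05 to 0.54). The slope is computed from the gene levels of the same wells. A property of the libraries and an effect of the treatment therefore cannot be told apart in it. With this slope as a covariate, 9 of 10 genes still rose at 10000 nM. SRSF1 lost its call (0.18, adjusted p = 0.06) and SRSF11 kept a smaller rise (0.25, adjusted p = 0.0054).

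Genes that work with the 10 were described from lists chosen by function, with earlier results of these data known. The values are mainly those at 10000 nM, where 36.7% of all genes rose and 37.2% fell with homoharringtonine and 32.2% rose and 39.7% fell with triptolide. SR kinase and import genes rose in 5, 7 and 9 of 9 cases at 100, 1000 and 10000 nM homoharringtonine (at 10000 nM median log2(Fold Change) 1.15), led by CLK4, which phosphorylates SR proteins, from 2.48 ± 1.67 to 31.8 ± 3.60 CPM (3.86, SE 0.19). At 10000 nM triptolide 8 of the 9 fell (median -2.84), and CLK1, a kinase of the same family, fell from 9.55 ± 3.67 to 0.291 ± 0.102 CPM (-5.08, SE 0.46). SR-related splicing proteins moved in the same directions as the 10 genes for the most part, with 14 of 21 higher and 2 lower at 10000 nM homoharringtonine (median 0.75) and 3 higher and 17 lower at 10000 nM triptolide (median -1.40). RSRC2 had the largest change of that list in both, 3.05 (SE 0.12) and -3.69 (SE 0.21).

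The remaining lists were more mixed at 10000 nM, the dose of the values that follow. Of the 4 other SR family members, SRSF10, a splicing repressor when dephosphorylated, rose by 1.74 (SE 0.12) and SRSF9 fell by 0.83 (SE 0.10) with homoharringtonine, while SRSF9 rose by 0.73 (SE 0.10) and SRSF8 fell by 0.90 (SE 0.08) with triptolide. Among 30 hnRNP and related regulators, 9 rose and 11 fell with homoharringtonine (median -0.11), a smaller share in each direction than of all genes, with PTBP2 at 3.29 (SE 0.20) and HNRNPA1 at -1.75 (SE 0.08), and 18 rose and 6 fell with triptolide (median 0.39), with HNRNPA2B1 at 1.08 (SE 0.08) and HNRNPDL at -1.80 (SE 0.12). Core snRNP proteins, 28 in number, were split as well, with 9 higher and 11 lower (median -0.11, SF3B1 at 1.51, SNRPD1 at -0.87) and 13 higher and 8 lower (median 0.24, SNRPD2 at 1.19, PRPF4 at -2.16). At lower homoharringtonine doses the snRNP list had more rises, 16 of 28 with 2 falls at 100 nM (median 0.40) and 12 with 5 falls at 1000 nM (median 0.08), where 32.3 and 33.4% of all genes fell. The triptolide rises of SRSF9, HNRNPA2B1 and SNRPD2 were falls of 2.07, 1.67 and 1.64 with mitochondrial scaling. RNPS1 (-0.82 with homoharringtonine) and RSRC1 (0.52 with triptolide) were the members of the SR-related list with the largest change against its median, and the RSRC1 rise was also a fall of 2.21 with that scaling.

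**Figure D5:**
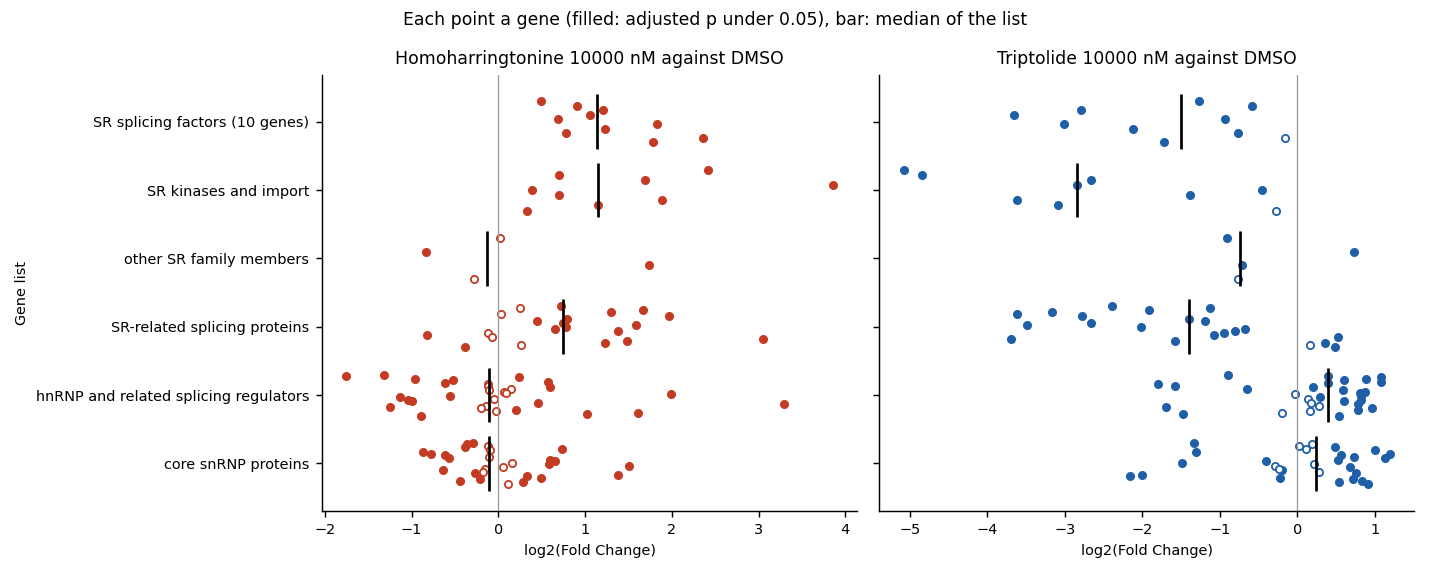
Log2(Fold Change) against DMSO of each gene in 6 lists at 10000 nM homoharringtonine and 10000 nM triptolide, with filled points for adjusted p under 0.05 and a bar for the list median. The 10 genes and the SR kinases have medians of 1.13 and 1.15 with homoharringtonine and -1.50 and -2.84 with triptolide, and the medians of the hnRNP and snRNP lists lie between -0.11 and 0.39.

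Across the 19 group means (DMSO and 18 treatments), the 10 genes varied together, with a median Pearson r of log2 CPM of 0.837 over 45 pairs, from 0.408 for SRSF5 and SRSF11 to 0.989 for SRSF3 and SRSF4. The groups share 1 scaling over the 72 wells, and the 6 homoharringtonine and triptolide groups set most of the range. Whether they also share a batch is not given in the sources used here. The means include the well of 70767 counts, where SRSF4 and TRA2B were at 0, and were not recomputed without it. Among 9371 protein-coding genes of at least 10 CPM on average, the pair most like each member was found by the same measure. SRSF1 and SRSF3 were both closest to DDX31 (0.987 and 0.998), followed by MRPS22 (0.985) and PGBD1 (0.993). SRSF4 was closest to RBM33 (0.995) and PGBD1 (0.994), SRSF6 to ZNF649 (0.998) and SNX11 (0.997), and SRSF7 to SNX11 and UBAP1 (0.993 each). TRA2B was closest to STX18 (0.993) and TMEM263 (0.989), TRA2A to EGR2 (0.984) and BCL2L13 (0.980), and SRSF11 to TDG and SREK1 (0.987 each). SRSF2 and SRSF5 had the weakest matches, POFUT2 (0.957) and GORASP1 (0.954) for SRSF2 and SAFB2 and TPRN (0.969 each) for SRSF5.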

How the data were processed

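Population RNA-seq libraries (poly A selected, stranded kit) of 72 wells were analysed from the deposited tables of RSEM, aligned by the authors to GRCh38. Per the file headers the authors' values used were expected counts, TPM and gene length. Versions of RSEM and of the Ensembl release are not given in the sources used here. Expected counts were rounded, filtered with filterByExpr (minimum count 10), scaled by TMM and tested with edgeR 4.0.16 (quasi-likelihood, Benjamini-Hochberg over all genes), each compound and dose against 18 DMSO wells, compounds against each other, and slopes on log10 dose. Log2 gene length was tested with limma 3.58.1. Positions and symbols came from GENCODE v44. DESeq2 1.42.0, other scalings and filters, covariates and single wells left out were alternatives. In simulated data with 3 against 18 wells, 187 of 200 genes changed by 1 on the log2 scale were recovered with 6 false calls, and 31 of 200 changed by 0.5. These runs held 16697 genes, the same spread setting for every gene and no GC difference between treated and DMSO wells. Far larger shares of genes were called with homoharringtonine and triptolide, so the simulated rates need not hold there. Members and lists were chosen with earlier results of these data known. From each list the largest rise and fall at 10000 nM of both compounds were named. For each member the 2 most similar genes were named.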

Additional observations from a re-analysis of the deposited data

Results flagged for a closer look

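For 6 of the 10 genes the response to dose differed between triptolide and homoharringtonine by a test of the difference itself, the interaction of compound and log10 dose over the 18 treated wells in edgeR's quasi-likelihood test with Benjamini-Hochberg adjustment. The slope per 10-fold dose was lower in triptolide by -0.94 for SRSF4 (SE 0.21, adjusted p = 0.0015), -0.77 for SRSF6 (SE 0.13, adjusted p = 0.00013), -0.74 for SRSF5 (SE 0.14, adjusted p = 0.00034), -0.48 for TRA2A (SE 0.15, adjusted p = 0.014), -0.47 for TRA2B (SE 0.17, adjusted p = 0.03) and -0.27 for SRSF2 (SE 0.09, adjusted p = 0.029). The TRA2B call was lost with the replicate number as a block (-0.45, adjusted p = 0.055). Lower differences were called for 21.4% of all genes tested. SRSF7 missed the threshold (-0.36, SE 0.14, adjusted p = 0.051) and passed, as the seventh gene, without the wells under 10 mil. SRSF1, SRSF3 and SRSF11 had differences of 0.17 (SE 0.10), -0.0043 (SE 0.10) and 0.14 (SE 0.15).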

How the results depend on the processing

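Of 338 recomputed counts of genes, 303 stayed within 1.5 times the reported count on the same side. Among single values, 1380 of 1471 kept direction and call, 73 lost the call, 3 gained it and 15 changed sign. With mitochondrial scaling the genes that rose at 100 nM homoharringtonine numbered 6, those that rose at 100 nM triptolide 0, and the calls over the other 4 compounds 11. With library sizes only, 0 rose at 100 nM triptolide, without a filter 1 did, and with at least 10 counts in every well 0 did and 1 fell. That last filter also applies to the well of 70767 counts. Genes under 10 counts there, SRSF4 and TRA2B among them, were therefore not tested at 100 nM triptolide. Its numbers at that dose thus cannot show whether their calls hold. With the GC slope as a covariate, calls over the other 4 compounds numbered 15 and 1 gene (SRSF1) fell with homoharringtonine dose. For lengths that covariate gave 3 shorter at 1000 nM and 1 longer at 10000 nM homoharringtonine, 0 shorter at 100 nM and 1 longer at 1000 nM triptolide, and without the wells under 10 mil 0 were shorter at 100 nM triptolide. The causes of these changes were not tested.

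Leaving out 1 replicate number at a time gave 1 to 2 genes higher at 100 nM triptolide, 2 to 4 calls over the other 4 compounds, 0 to 4 genes rising with homoharringtonine dose and 1 to 4 falling with triptolide dose. For lengths it gave 0 to 1 longer at 1000 nM homoharringtonine, 1 to 2 longer and 1 to 1 shorter at 10000 nM homoharringtonine, and 0 to 1 longer and 0 to 3 shorter at 100 nM triptolide.

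Signs that changed were those of SRSF5 at 100 nM triptolide (-1.08 with mitochondrial scaling, -0.16 with 10 counts in every well), TRA2A at 100 nM (-1.25 with mitochondrial scaling) and at 10000 nM triptolide (0.0036 with DESeq2), and, with mitochondrial scaling, SRSF9 (-2.07), RSRC1 (-2.21, and -0.0071 with library sizes only), HNRNPA2B1 (-1.67) and SNRPD2 (-1.64). The near-zero difference of SRSF5 between the compounds at 100 nM became -0.11 with DESeq2, -0.13 with library sizes only, -0.28 to 0.0503 without 1 replicate (-0.015 without replicate 2), -0.035 with the replicate block and -0.0017 without the wells under 10 mil.

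Whether replicate numbers pair the wells is not settled. Deviations of same-numbered treated and DMSO wells correlated at a mean r of -0.068, against 0.0208 for other numbers, and those of triptolide and homoharringtonine wells at -0.0561 against 0.0431. Single same-numbered pairs of treated and DMSO wells ran from -0.893 to 0.876, so these means cannot exclude shared structure. Replicate 1 had the lowest GC slope in most nilotinib, pyrazolanthrone and miglitol groups, but not with homoharringtonine at 1000 and 10000 nM. With the replicate number as a block, 9, 10 and 10 genes rose with homoharringtonine and 8, 7 and 9 fell with triptolide. These fits kept only 3 DMSO wells. In blocked trends 2 genes fell with triptolide dose and 5 differed in dose trend (TRA2B lost its call, -0.45, adjusted p = 0.055). The blocked length fits called 0 of the 10 genes at 1000 nM or 10000 nM homoharringtonine or 100 nM triptolide. They also called 0 of all genes tested there, so they cannot show whether single length calls hold. The SRSF4 estimate at 10000 nM homoharringtonine was -0.29 in them.

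The well of 70767 counts limits 100 nM triptolide, where SRSF4 and TRA2B were at 0 in it. SRSF3, SRSF6, SRSF7, SRSF11 and TRA2A, at 12.05 to 36.1 CPM in that well, rested on a few reads each.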
